A study of Mus musculus with 12 samples.

Results

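The genes described here are 6 CC chemokine ligands that draw monocytes, Ccl2, Ccl7, Ccl8, Ccl12, Ccl3 and Ccl4, and Ccr2 and Ccr1, receptors of some of them. All were measured by RNA-seq in mouse melanoma growing in the brain. Members were taken as the rows whose Ensembl identifier carries one of these symbols. They are 8 of the 47069 genes in the tables, and all 8 passed the filter on low counts. The 12 libraries come from intracranial tumors of C57BL/6 mice that received 100000 B16 F1 cells, a pigmented mouse melanoma line, in the brain and were examined on day 9, with 3 biological replicates in each of 4 groups. The groups were mice with an intracranial and an extracranial tumor given anti-PD-1 with anti-CTLA-4, mice with both tumors given IgG, mice with the intracranial tumor only given anti-PD-1 with anti-CTLA-4, and mice with the intracranial tumor only given IgG. The antibody pair against PD-1 and CTLA-4, receptors that restrain T cells, is called therapy below, and IgG is its control antibody. All groups share the strain, the cell line and the brain implant, and only the brain tumor was sequenced. The study asks whether melanoma outside the brain alters what the antibody pair does to melanoma in the brain.

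CC chemokines are small secreted proteins named for a pair of adjacent cysteines, and they act on G protein-coupled receptors of white blood cells. Ccl2, Ccl7 and Ccl12 signal through Ccr2, the receptor that inflammatory monocytes use to leave the bone marrow and enter inflamed tissue, and Ccl8 belongs to the same family of monocyte chemoattractant proteins but is in the mouse a ligand of Ccr8. Ccl3 and Ccl4 are the macrophage inflammatory proteins, released by activated macrophages, T cells and NK cells. Ccl3 acts on Ccr1. In the brain, microglia, astrocytes and entering myeloid cells can all make such ligands.

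The ligands share the cysteine pair and differ around it. The following stretches of 5 coding sequences, from codon 27 at the earliest to codon 40 at the latest, come from the GENCODE M21 transcripts, are written 5′ to 3′ on the coding strand, and show the 2 adjacent cysteine codons in capitals:
Ccl2: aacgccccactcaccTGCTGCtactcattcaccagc
Ccl7: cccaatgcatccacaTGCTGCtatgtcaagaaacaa
Ccl8: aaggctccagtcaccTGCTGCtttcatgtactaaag
Ccl12: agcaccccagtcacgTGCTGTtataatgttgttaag
Ccl4: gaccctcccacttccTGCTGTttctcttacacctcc
Over the bases of the reading frames that aligned, gaps left out, identity between pairs of ligands lay between 53.3% (Ccl8 and Ccl3) and 70.8% (Ccl8 and Ccl12). The Ccl2 frame has 148 codons, and its pairs cover 275 to 315 aligned bases, so part of it is left out. Ccl3 and Ccl4 were identical at 67.4% of aligned bases, and Ccl2 and Ccl7 at 68.4%. No stretch of 50 bases in the transcripts of the 6 ligands or of Ccr1 occurs in another annotated gene. For Ccr2, 129 of 6758 such stretches (1.91%) occur elsewhere, so a small part of its reads may not be placed in Ccr2 alone.

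In GRCm38 the monocyte chemoattractant genes lie together on chromosome 11, all on the plus strand. Ccl2 (ENSMUSG00000035385) spans 82035571 to 82037453, Ccl7 (ENSMUSG00000035373) spans 82045712 to 82047525, Ccl12 (ENSMUSG00000035352) spans 82101845 to 82103400 and Ccl8 (ENSMUSG00000009185) spans 82115185 to 82116799. With Ccl11, which sits between Ccl7 and Ccl12, they are the 5 protein-coding genes that lie whole within an 81.2 kb stretch. On the same chromosome, Ccl3 (ENSMUSG00000000982, minus strand) spans 83647844 to 83649355 and Ccl4 (ENSMUSG00000018930, plus strand) spans 83662584 to 83664683, neighbours within 16.8 kb. On chromosome 9, Ccr1 (ENSMUSG00000025804, minus strand) spans 123962124 to 123968692 and Ccr2 (ENSMUSG00000049103, plus strand) spans 124101950 to 124113557. Ccr1l1 and Ccr3 lie between them. Gm17268, a protein-coding gene that reaches into the first stretch on the strand opposite to Ccl2, is the only annotated gene that overlaps a member, and no exon of it overlaps an exon of Ccl2.

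Promoters are shown for Ccl8 and Ccl12, the pair with the most alike coding sequences, neighbours that differ in level below. The RefSeq promoter table of GRCm38.p6 held 5 of the 8 members (Ccl8, Ccl12, Ccl3, Ccr2 and Ccr1). Each entry runs from 250 bases before the RefSeq start of the gene to 50 bases after it. Here these are chr11:82114935-82115234 and chr11:82101595-82101894 on the plus strand, and capitals mark the only match to TATAAAA:
Ccl8: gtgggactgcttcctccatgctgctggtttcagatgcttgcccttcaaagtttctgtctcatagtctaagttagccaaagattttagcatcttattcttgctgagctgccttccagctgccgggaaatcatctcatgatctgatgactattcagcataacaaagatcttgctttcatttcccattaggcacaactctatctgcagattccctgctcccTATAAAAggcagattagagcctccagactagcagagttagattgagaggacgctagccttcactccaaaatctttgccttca
Ccl12: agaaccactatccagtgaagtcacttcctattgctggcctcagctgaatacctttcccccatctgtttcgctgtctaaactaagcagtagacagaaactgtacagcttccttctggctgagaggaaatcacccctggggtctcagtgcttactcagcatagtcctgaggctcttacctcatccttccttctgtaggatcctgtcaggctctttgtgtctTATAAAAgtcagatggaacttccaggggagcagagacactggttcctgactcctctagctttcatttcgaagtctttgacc
TATAAAA, searched on both strands, is held by 5.48% of the 32851 promoters in the table and by these 2 of the 5 members. The consensus of NF-kB, which drives many chemokine genes, was held by 8.46% of all promoters and by Ccr1 alone of the 5. The AP-1 letters TGANTCA (7.81% of all) and the IRF motif, given by name alone (3.44% of all), were in none of the 5. A match is a description of letters, and a missing match says only that these letters are not in this window. For Ccr2 the window (chr9:124101933-124102232) begins shortly before the gene start given above and otherwise lies within the gene.

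Library totals ran from 18427495 to 22294182 reads. A pair of IgG libraries stood apart from their own groups. In replicate 2 of the mice with both tumors given IgG, the neuronal gene Snap25 had 1.26 CPM (reads scaled by the library's reads in tested genes and its TMM factor), against 66.4 and 119 CPM in replicates 1 and 3. The sample name of that library also ends in a different suffix from the others. Replicate 2 of the mice with the intracranial tumor only given IgG was far above both its replicates in the genes described below. Member results are therefore also given without these libraries. The melanocyte list, which marks the B16 cells, summed to between 27800 and 36531 CPM over the 12 libraries.

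Ccl2, the archetypal Ccr2 ligand, had 10.001, 19.1 and 20.4 CPM in the mice with both tumors given therapy and 13.5, 4.80 and 3.12 CPM in the mice with both tumors given IgG. It had 1.38, 7.56 and 12.5 CPM in the intracranial-only mice given therapy and 4.84, 33.2 and 2.47 CPM in the intracranial-only mice given IgG. The groups overlapped, and the highest of all 12 libraries was replicate 2 of the last group. Ccl7, which shares Ccr2 with Ccl2, had 8.73, 15.6 and 12.4 CPM with both tumors under therapy and 8.71, 4.60 and 2.43 CPM with both tumors under IgG, so the groups parted by 1 narrow gap between both replicates 1. It had 1.55, 3.34 and 7.78 CPM with the intracranial tumor only under therapy and 1.79, 23.5 and 1.02 CPM with the intracranial tumor only under IgG. Again 1 IgG library was the highest of the 12.

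Ccl12, a mouse Ccr2 ligand, had 4.55, 11.8 and 12.2 CPM with both tumors under therapy and 5.55, 1.57 and 4.02 CPM with both tumors under IgG. In intracranial-only mice it had 0.442, 2.90 and 5.62 CPM under therapy and 3.32, 13.6 and 1.07 CPM under IgG. Its groups overlapped throughout, as those of Ccl2 did. Ccl8 stood out among the monocyte chemoattractant ligands, with 23.3, 55.8 and 21.4 CPM with both tumors under therapy, against 5.41, 0.657 and 3.17 CPM with both tumors under IgG. Under therapy with the intracranial tumor only it had 0.166, 0.986 and 6.40 CPM, and under IgG with the intracranial tumor only 0, 10.4 and 0.107 CPM. All 3 libraries of mice with both tumors under therapy lay above the other 9. The library without a Ccl8 read allows up to 3 reads, or 0.158 CPM there, from counting error only.

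Ccl3, a ligand of Ccr1, had 2.41, 13.1 and 9.00 CPM with both tumors under therapy and 1.82, 0.303 and 1.69 CPM with both tumors under IgG. In intracranial-only mice it had 0.608, 0.548 and 2.12 CPM under therapy and 0.579, 3.92 and 0.215 CPM under IgG. Ccl4, the gene next to it, had 2.86, 14.6 and 11.1 CPM with both tumors under therapy and 0.957, 0.202 and 1.44 CPM with both tumors under IgG. Its levels were 0.277, 0.219 and 1.47 CPM with the intracranial tumor only under therapy and 0.474, 3.30 and 0.161 CPM with the intracranial tumor only under IgG. For both genes the libraries of mice with both tumors under therapy lay above those of both neighbouring groups, and replicate 1 was the lowest of these 3. These are low counts. Ccl4 had between 3 and 293 reads in a library.

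The receptor Ccr2 had 14.9, 18.0 and 25.4 CPM with both tumors under therapy and 15.7, 2.68 and 5.95 CPM with both tumors under IgG. It had 1.27, 5.31 and 12.3 CPM with the intracranial tumor only under therapy and 0.790, 30.4 and 0.698 CPM with the intracranial tumor only under IgG. Replicate 2 of the last group was the highest of all 12 libraries and its replicates the lowest, a 43.5-fold range. Ccr1, a receptor of monocytes and neutrophils, had 7.68, 16.2 and 13.05 CPM with both tumors under therapy and 5.74, 1.52 and 1.88 CPM with both tumors under IgG. With the intracranial tumor only it had 0.885, 4.66 and 7.09 CPM under therapy and 1.00, 16.6 and 0.806 CPM under IgG. The therapy and IgG libraries did not overlap with both tumors and did overlap with the intracranial tumor only.

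**Figure D1:**
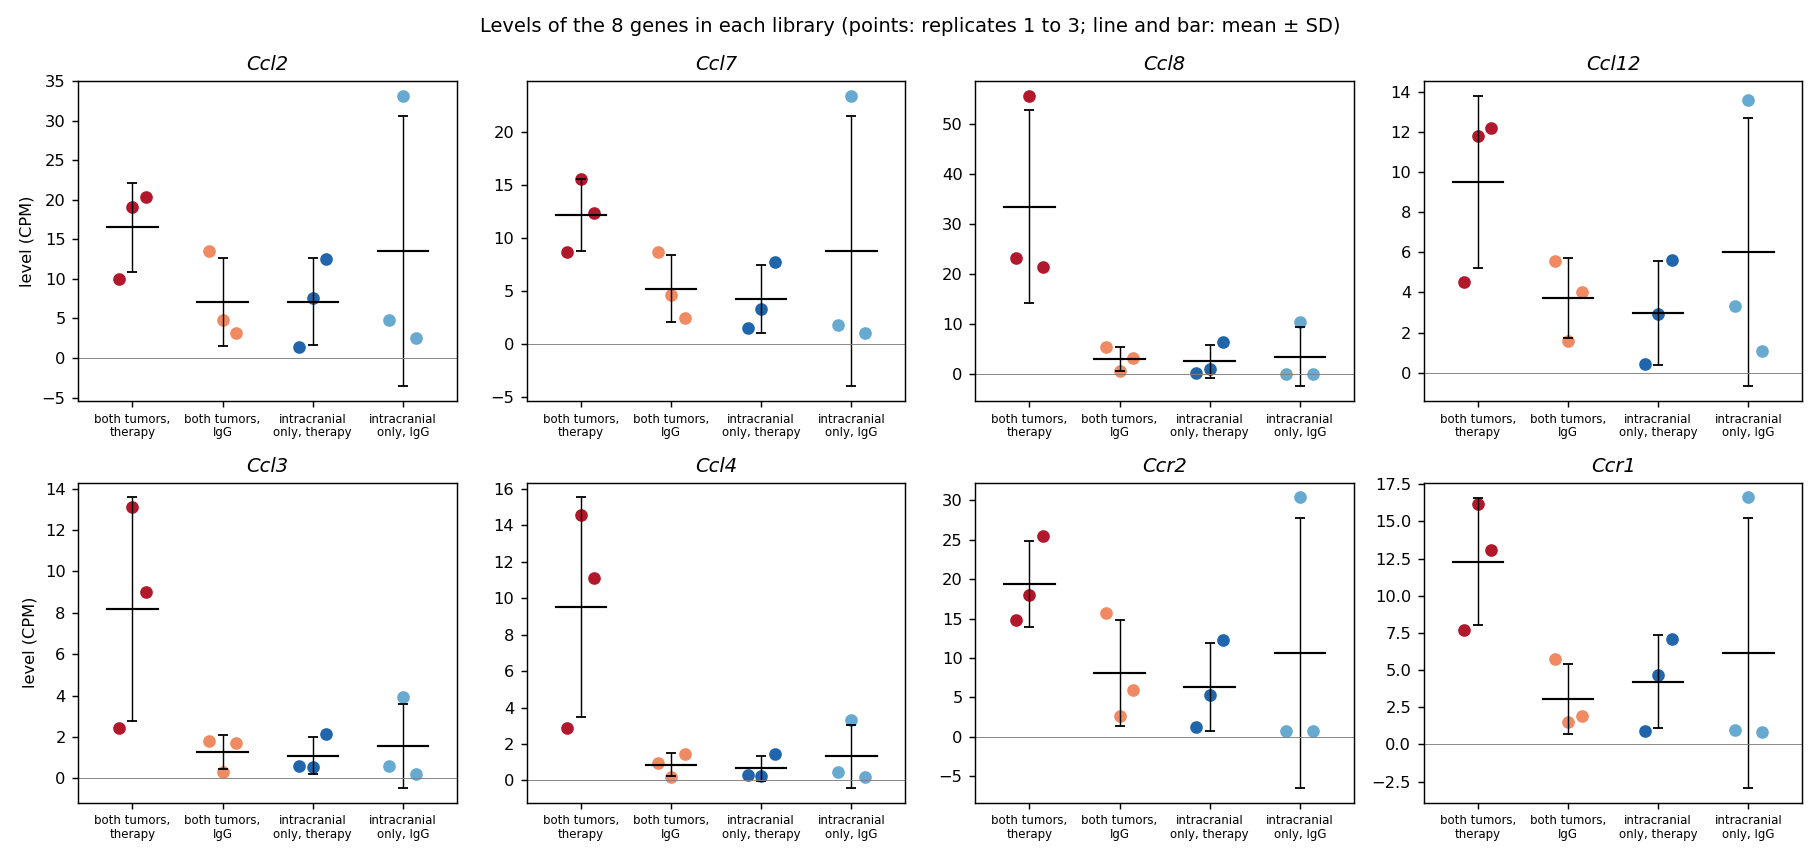
Level of each gene in CPM (vertical axes, a separate linear scale for each gene) in the 12 libraries, as points for replicates 1 to 3 by group, with a line at the mean and a bar of 1 SD (n = 3), which reaches below 0 where 1 library is far above the others. Ccl8, Ccl3 and Ccl4 have their highest library among mice with both tumors under therapy, while replicate 2 of the intracranial-only IgG group tops Ccl2, Ccl7, Ccl12, Ccr2 and Ccr1.

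For all 8 genes the group mean was highest with both tumors under therapy, and second highest with the intracranial tumor only under IgG, where 1 library set the mean. Ccl8 averaged 33.5 ± 19.3 CPM with both tumors under therapy and 3.08 ± 2.38 CPM with both tumors under IgG (SD, n = 3 each). Its intracranial-only means were 2.52 ± 3.39 CPM under therapy and 3.49 ± 5.96 CPM under IgG. Ccl4 averaged 9.52 ± 6.02 CPM with both tumors under therapy and 0.866 ± 0.623 CPM with both tumors under IgG. Its intracranial-only means were 0.656 ± 0.708 CPM under therapy and 1.31 ± 1.73 CPM under IgG. For Ccl8, Ccl3 and Ccl4 the first mean was above the second by more than the larger SD of these groups, and for the other 5 genes it was not. The other 3 groups lay within 1 SD of their neighbours in that order for every gene.

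The first comparison, therapy against IgG where both tumors were present, asks what the antibody pair does when melanoma also grows outside the brain. The fitted log2 fold change was above 0 for all 8 genes, as for 51.6% of all genes tested. Their median was 1.68, against 0.02 over all 15925 genes. None of the 8 passed the adjusted p of 0.05 in edgeR's quasi-likelihood test, against 5.39% of all genes tested in either direction, 1.24% higher and 4.14% lower. At an unadjusted p under 0.05 the count was 2 of 8 (Ccl3 and Ccl4), against 33.4% of all genes. DESeq2 gave an adjusted p for 7 of the 8 and called the same 2, with 20.4% of all genes called. The libraries of the groups did not overlap for Ccl7, Ccl8, Ccl3, Ccl4 and Ccr1, 5 of 8, against 17.9% of all genes tested. All 5 lay higher under therapy, and 0 of 8 lay lower without overlap, against 20.1% of all genes.

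The macrophage inflammatory protein genes had the smallest p-values of the 8 in that comparison. Ccl4 had a log2 fold change of 3.45 ± 1.15 (SE), with an edgeR adjusted p of 0.0781, which ran from 0.00785 to 0.236 over 19 alternative analyses. Ccl3 had 2.68 ± 1.06 with an adjusted p of 0.114. The Ccl8 estimate was as large, 3.44 ± 1.65, but its spread was wider, with an adjusted p of 0.169. The Ccr2 ligands Ccl2 (1.21 ± 0.98), Ccl7 (1.22 ± 1.02) and Ccl12 (1.36 ± 0.96) had adjusted p-values of 0.319 to 0.396. Ccr1 had 2.01 ± 1.11 and Ccr2 1.26 ± 1.26, with adjusted p-values of 0.220 and 0.481.

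The second comparison sets therapy against IgG where the brain held the only tumor. All 8 fitted log2 fold changes lay between -1.05 (Ccl7) and -0.46 (Ccl8), with a median of -0.83 against -0.03 over all genes. None passed the edgeR test (0.0% of all genes called), and none had an unadjusted p under 0.05 (13.5% of all genes). DESeq2 called none of the members to which it gave an adjusted p. All 8 genes overlapped between the groups, while 8.78% of all genes lay higher and 14.4% lower without overlap. Replicate 2 of the IgG group set the sign. Without it all 8 estimates were above 0, from 0.45 (Ccl12) to 5.43 (Ccl8), and none passed the test.

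Both tumors against the intracranial tumor only under therapy asks what the extracranial tumor adds in treated mice. Ccl3 and Ccl4 rose, with log2 fold changes of 2.89 ± 1.08 (edgeR adjusted p = 0.0486) and 3.82 ± 1.18 (adjusted p = 0.0231). These are 2 of 8 genes called, against 24.4% of all genes called higher and 45.4% called in either direction, so the count is near the background of this comparison. Ccl8 had 3.71 ± 1.67 and an adjusted p of 0.0912. The Ccr2 ligands were at 1.21 ± 0.98 (Ccl2, adjusted p = 0.332), 1.53 ± 1.03 (Ccl7, 0.243) and 1.66 ± 0.97 (Ccl12, 0.180). Ccr2 was at 1.62 ± 1.28 (0.318) and Ccr1 at 1.54 ± 1.09 (0.268). The libraries did not overlap for 6 of 8, namely Ccl7, Ccl8, Ccl3, Ccl4, Ccr2 and Ccr1, all higher with both tumors, against 31.4% of all genes higher and 28.5% lower without overlap. The median of the 8 was 1.64, against 0.03.

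Both calls were near the threshold. That of Ccl4 was lost without replicate 1 or 2 of the intracranial-only therapy group (adjusted p = 0.0768 and 0.0781) and without replicate 2 or 3 of the group with both tumors under therapy (0.0692 and 0.0526). That of Ccl3 was lost without the same 4 libraries (0.136, 0.140, 0.144 and 0.0948), without replicate 1 of the intracranial-only IgG group (0.0527) and without replicate 1 or 3 of the group with both tumors under IgG (0.0623 and 0.0606). Ccl8 was called without replicate 2 of the intracranial-only IgG group (0.0223), and over all 19 alternatives its adjusted p ran from 0.00867 to 0.215. Both IgG libraries that stand apart were chosen after seeing the data, 1 of them by its levels of these genes. Neither belongs to the groups compared here, so leaving them out acts mainly on the spread shared by the groups. Smaller p-values without them are no separate support. In the edgeR fit without both, 3 of the 8 were called, Ccl8, Ccl3 and Ccl4, with adjusted p-values of 0.00867, 0.00757 and 0.00371. In that fit 51.9% of all genes were called and 28.6% were called higher, so this count too is near the background.

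**Figure D2:**
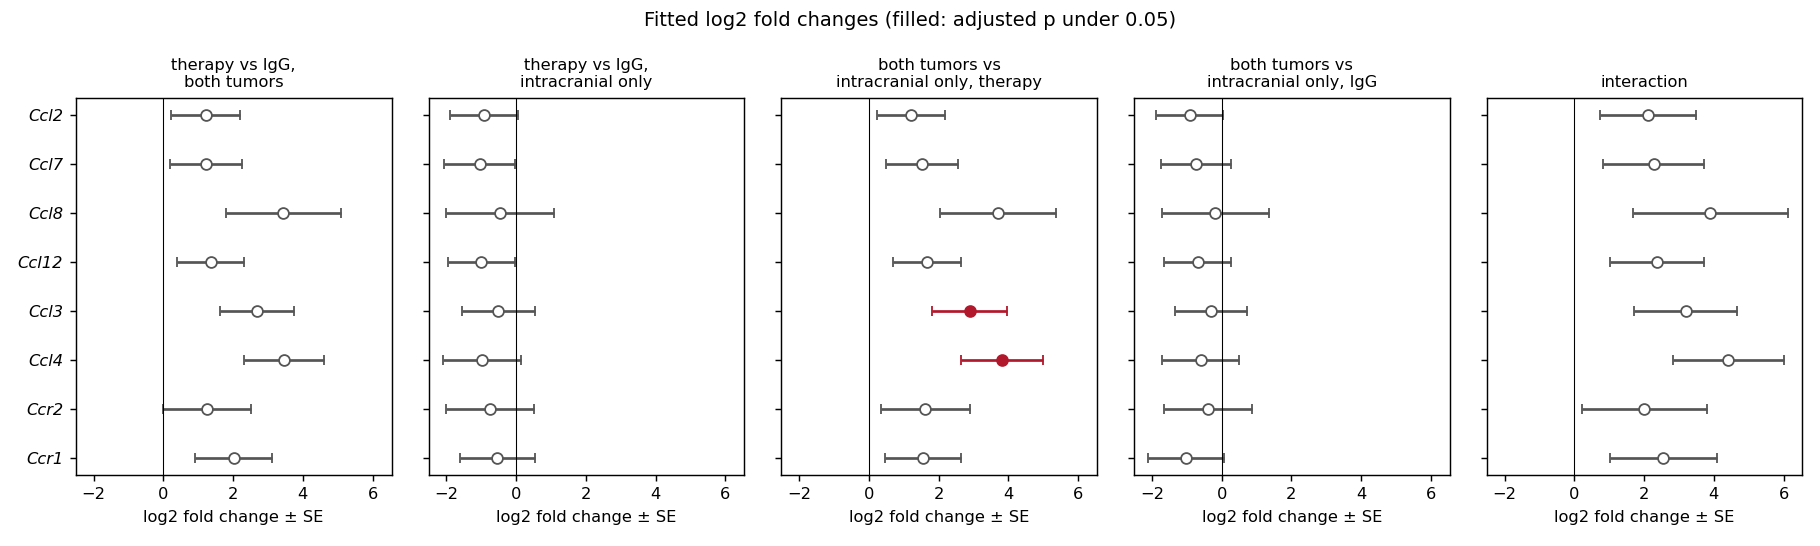
Fitted log2 fold change (horizontal axes, with bars of 1 SE) of each of the 8 genes in the 5 comparisons, from edgeR over 12 libraries, where filled points passed an adjusted p of 0.05. Ccl3 and Ccl4 are filled in the comparison of both tumors with the intracranial tumor only under therapy, at 2.89 and 3.82, and no other point is filled.

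Both tumors against the intracranial tumor only under IgG gave log2 fold changes between -1.01 (Ccr1) and -0.18 (Ccl8) with a median of -0.65 against 0.01. Every adjusted p was 1.0 in edgeR, 0.0% of all genes were called, and no member had an unadjusted p under 0.05 (1.18% of all genes). DESeq2 called none of the members to which it gave an adjusted p. Here too all 8 estimates turned positive without replicate 2 of the intracranial-only IgG group, from 0.76 (Ccl12) to 5.70 (Ccl8). The interaction, the therapy effect with both tumors minus that with the intracranial tumor only, was above 0 for all 8 genes, from 2.01 ± 1.78 (Ccr2) to 4.42 ± 1.59 (Ccl4, edgeR adjusted p = 0.0667). None passed, against 22.0% of all genes in either direction, 12.1% higher and 9.93% lower. At an unadjusted p under 0.05 the count was 1 (Ccl4), against 39.4% of all genes. DESeq2 gave an adjusted p for 7 of the 8 and called the same gene, with 29.0% of all genes called. Ccl3 had 3.19 ± 1.48 (0.134) and Ccl8 3.90 ± 2.23 (0.214). Without replicate 2 of the intracranial-only IgG group the interaction of Ccl7, Ccl8, Ccr2 and Ccr1 fell below 0, to -0.37, -1.99, -1.82 and -0.21. Those of the others were smaller than with all libraries, at 0.24 (Ccl2), 0.90 (Ccl12), 1.22 (Ccl3) and 2.39 (Ccl4).

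Levels of different genes can be set side by side only per length, so the makeup of the ligands was taken from FPKM, the authors' deposited values, which divide the reads by gene length and library size. With both tumors under therapy, Ccl8 was the most abundant of the 6 ligands in each library, at 47.5, 111 and 41.8 FPKM. It made up 54.7%, 51.7% and 31.9% of the summed FPKM of the 6 in those libraries, against 21.0%, 8.12% and 25.1% with both tumors under IgG. Its share was 5.61%, 9.29% and 24.4% with the intracranial tumor only under therapy and 0%, 16.7% and 3.13% with the intracranial tumor only under IgG. The shares with both tumors under therapy were above those in the other 9 libraries, without a test. Ccl2 had 9.50% to 16.3% of the sum with both tumors under therapy, 13.2% to 31.7% with both tumors under IgG, 25.0% to 38.1% in intracranial-only mice under therapy and 28.7% to 38.6% in intracranial-only mice under IgG. Ccl12 had 10.7% to 18.3% with both tumors under therapy, 19.4% to 31.8% with both tumors under IgG, 15.02% to 27.5% in intracranial-only mice under therapy and 22.1% to 42.6% in intracranial-only mice under IgG, so the third range overlaps the first. The share of Ccl4 overlapped between the groups, at 5.21% to 12.8% with both tumors under therapy and 1.93% to 8.79% with both tumors under IgG. The summed FPKM of the 6 was 86.8, 215 and 131 with both tumors under therapy and 51.0, 15.2 and 25.9 with both tumors under IgG. It was 5.66, 19.9 and 50.01 with the intracranial tumor only under therapy and 15.1, 123 and 6.78 with the intracranial tumor only under IgG, so the IgG library with a sum of 123 had a Ccl8 share below all 3 libraries of mice with both tumors under therapy.

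**Figure D3:**
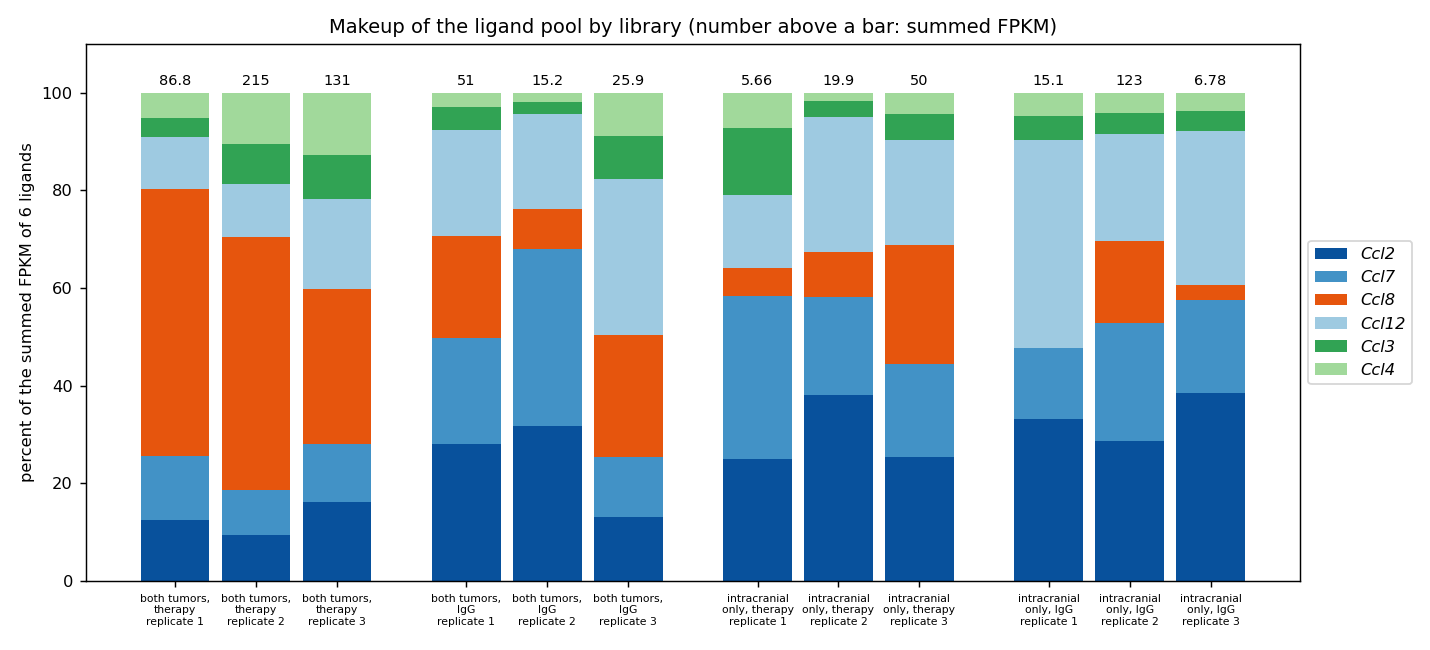
Share of each ligand in the summed FPKM of the 6 ligands (vertical axis, percent), 1 bar for each of the 12 libraries, with the summed FPKM above each bar. The Ccl8 segment covers 31.9% to 54.7% with both tumors under therapy and at most 25.1% elsewhere.

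The genes of nearest pattern were sought for each member as those with the smallest root mean square difference of log2 CPM, centred on its mean over the 12 libraries, among 12956 genes. For Ccl8 these were H2-Eb1, H2-Ab1 and H2-Aa, chains of MHC class II, at 0.57, 0.58 and 0.59, against a root mean square of 2.84 for Ccl8 itself. Its nearest member was Ccr2, at 1.29, so Ccl8 lay farther from the other members than any of them from its own nearest one. Ccl3 and Ccl4 were nearest to each other among members, at 0.42, and outside them Ccl3 was nearest to Bst1, Milr1 and H2-T22 (0.34 to 0.37) and Ccl4 to Cd180, Clec2d and Cd300lf (0.38 to 0.42). Ccl2 was nearest to the scavenger receptor gene Msr1 (0.40), Emilin2 and Isg20, and Ccl12 to the interleukin 4 receptor gene Il4ra (0.51), Msr1 and Ms4a6c. Ccl7 and Ccr1 were both nearest to Dok2, an adaptor of blood cells, at 0.32 and 0.39. Next to it came Isg20 and Cd200r1 for Ccl7, and Ms4a4a for Ccr1. Ccr2 was nearest to Plbd1 (0.48), Dok2 and Ifit1bl1. These distances describe 12 libraries, all of brain tumor tissue whose cell makeup varies, and carry no test.

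Bulk RNA cannot tell apart fewer cells of a type and less RNA per cell, and marker lists of many cell types moved with the members. Of the 14 macrophage markers, 2 rose under therapy against IgG with both tumors and 12 rose with both tumors against the intracranial tumor only under therapy. Of all genes tested, edgeR called 1.24% higher in the first of these comparisons and 24.4% higher in the second. In the first, 12 of the 14 macrophage markers had an unadjusted edgeR p under 0.05, against 33.4% of all genes. DESeq2 called 9 of these markers there, against 20.4% of all genes. The macrophage markers summed to 4267 to 5102 CPM with both tumors under therapy and 1376 to 3120 CPM with both tumors under IgG. With the intracranial tumor only their sum was 1257 to 1661 CPM under therapy and 1485 to 2516 CPM under IgG. Of the 12 T cell markers, 10 rose with the extracranial tumor under therapy. Under therapy against IgG with both tumors edgeR called 0 of them (8 at an unadjusted p under 0.05) and DESeq2 6. Their sum was 64.9 to 134 CPM with both tumors under therapy, 2.58 to 24.2 CPM with both tumors under IgG, 3.18 to 17.6 CPM with the intracranial tumor only under therapy and 2.47 to 34.9 CPM with the intracranial tumor only under IgG. Cd8b1 was at 0 in replicates 1 and 2 of the intracranial-only therapy group and in replicates 1 and 3 of the intracranial-only IgG group, and in the last 2 libraries Cd3e was at 0 as well. Cd8a, the CD8 T cell marker, had 7.77, 23.4 and 20.7 CPM with both tumors under therapy, against 1.72, 0.152 and 2.28 CPM with both tumors under IgG, replicate 1 again the lowest of its group as for Ccl3 and Ccl4. Of 12 inflammatory monocyte markers, 2 (F10 and Vcan) rose with the extracranial tumor under therapy, no larger a share than the 24.4% of all genes called higher. Under therapy against IgG with both tumors edgeR called 0 (4 at an unadjusted p under 0.05) and DESeq2 4. Without both IgG libraries that stand apart, 9 of the 12 were called with the extracranial tumor under therapy. In that fit 51.9% of all genes were called in either direction and 28.6% higher. Ly6c2, their defining gene, had 5.36, 16.7 and 21.6 CPM with both tumors under therapy, 6.08, 0.253 and 3.12 CPM with both tumors under IgG, 0.664, 0.767 and 4.01 CPM in intracranial-only mice under therapy and 0.0527, 18.7 and 0.161 CPM in intracranial-only mice under IgG. In the last group replicate 2 was the high library, as for Ccr2, and the other two were near 0.

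Brain cells moved as well. All 12 neuron markers and all 11 microglia markers rose with both tumors against the intracranial tumor only under therapy, where 24.4% of all genes were called higher. The neuron list summed to 590 to 1843 CPM with both tumors under therapy and 110 to 831 CPM with both tumors under IgG, and to 107 to 115 CPM under therapy and 352 to 725 CPM under IgG with the intracranial tumor only. The microglia list summed to 256 to 501 CPM with both tumors under therapy and 52.9 to 206 CPM with both tumors under IgG, and to 57.3 to 66.9 CPM under therapy and 85.8 to 132 CPM under IgG with the intracranial tumor only. In that comparison 5 of 11 dendritic cell markers, 11 of 12 astrocyte markers, 11 of 11 oligodendrocyte markers and 6 of 10 endothelial markers were called higher. So were 1 of 10 NK cell markers, 1 of 6 neutrophil markers, 2 of 10 fibroblast markers, 0 of 5 red blood cell markers and 1 of 11 melanocyte markers. Without both IgG libraries 10 NK cell markers were called, in a fit that called 51.9% of all genes. Neuronal markers at 0 were Rbfox3 and Nefm in replicate 2 and Nefl in replicate 3 of the intracranial-only therapy group. The part of these cell types in the member results was not tested.

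Set against macrophage markers, the means of Ccl8 and Ccl4 were higher with both tumors under therapy than with both tumors under IgG and that of Ccl12 was lower, each by more than the larger SD. The log2 level of Ccl8 minus the mean log2 level of the 14 macrophage genes averaged -1.29 ± 0.63 with both tumors under therapy and -2.75 ± 0.93 with both tumors under IgG, and -3.29 ± 1.80 under therapy and -4.71 ± 2.46 under IgG with the intracranial tumor only (SD, n = 3 each). Ccl4 stood at -3.24 ± 0.88 with both tumors under therapy and -4.35 ± 0.69 with both tumors under IgG, and at -4.39 ± 0.81 under therapy and -4.30 ± 0.80 under IgG with the intracranial tumor only. Ccl3 was at -3.47 ± 0.90 with both tumors under therapy and -3.85 ± 0.70 with both tumors under IgG. Among the Ccr2 ligands, Ccl2 was at -2.23 ± 0.24 with both tumors under therapy and -1.43 ± 1.07 with both tumors under IgG, Ccl7 at -2.63 ± 0.11 with both tumors under therapy and -1.77 ± 1.05 with both tumors under IgG, and Ccl12 at -3.08 ± 0.46 with both tumors under therapy and -2.25 ± 0.37 with both tumors under IgG. Ccr2 was at -1.96 ± 0.32 with both tumors under therapy and -1.33 ± 0.82 with both tumors under IgG. Ccr1 was at -2.65 ± 0.20 with both tumors under therapy and -2.60 ± 0.76 with both tumors under IgG. These differences are descriptions with no test, and those of Ccl2, Ccl7, Ccl3, Ccr2 and Ccr1 lie within the larger SD. With both tumors, single libraries overlapped for Ccl8, whose lowest value under therapy was -1.93 and highest under IgG -1.90. They overlapped for Ccl4 as well, at -4.24 and -3.70. For Ccl12 they did not, by a narrow gap between -2.73, the highest under therapy, and -2.61, the lowest under IgG.

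**Figure D4:**
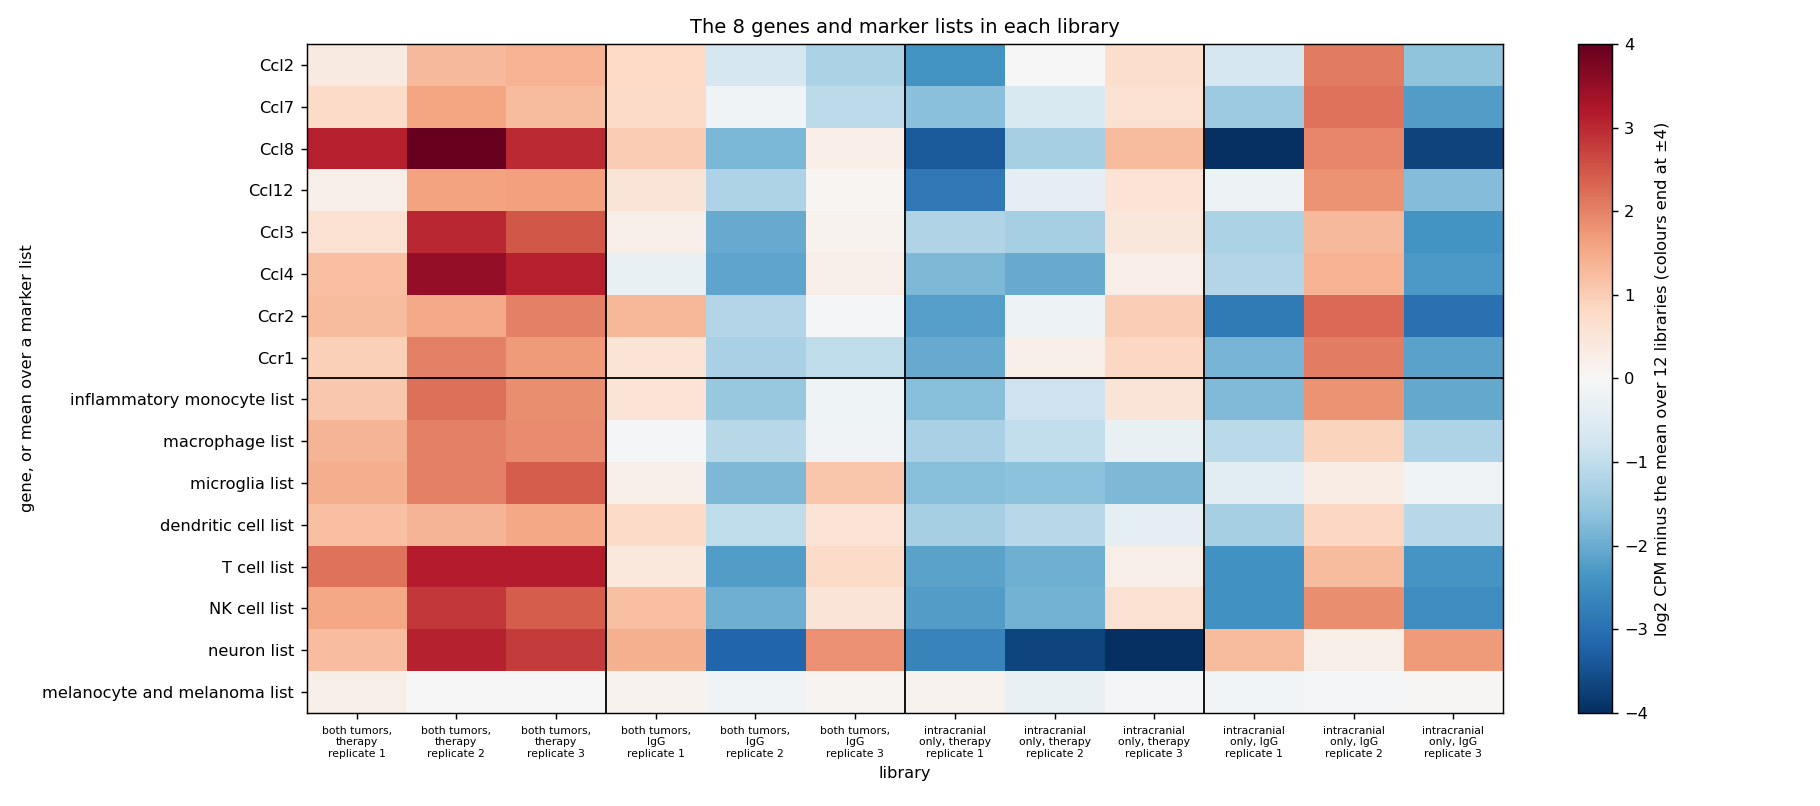
Colour map of log2 CPM minus its mean over the 12 libraries (colour scale, log2 units, ending at ±4) for the 8 genes and the mean of 8 marker lists of immune, brain and tumor cells (rows) in each library (columns, by group). The 3 libraries of mice with both tumors under therapy are above the mean in every row of immune genes, replicate 2 of the intracranial-only IgG group is above it for all 8 members, and the melanocyte list stays near 0.

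Other CC ligands, chosen as a list of 14 of which 11 were tested, had 2 members higher under therapy with both tumors and 6 higher with both tumors against the intracranial tumor only under therapy, with medians of 1.49 and 3.36. Over all genes tested, edgeR called 1.24% higher in the first of these comparisons and 24.4% higher in the second, with medians of 0.02 and 0.03. Without both IgG libraries that stand apart, 0 of the genes in any of these lists were called under therapy with both tumors, as for all genes. Ccl11, an eosinophil attractant that lies between Ccl7 and Ccl12, had 80, 52 and 28 reads with both tumors under therapy, 5, 3 and 3 with both tumors under IgG, 1 in each intracranial-only library under therapy and 14, 6 and 5 in intracranial-only mice under IgG. It was higher under therapy with both tumors by 3.75 ± 0.53 on the log2 scale (edgeR adjusted p = 0.0498), and passed for the extracranial tumor under therapy (0.00455) and the interaction (0.0321). The 4 members beside it did not pass under therapy with both tumors, though the Ccl8 estimate there, 3.44 ± 1.65, was near that of Ccl11. An edgeR adjusted p of 0.0498 was the smallest of any gene in that comparison. No gene passed it with DESeq2 size factors or with no filter, which holds for each gene at 0.0498 below as well. Ccl24, another eosinophil attractant, had 517, 73 and 14 reads with both tumors under therapy, against 6, 0 and 2 with both tumors under IgG (0.0498), so replicate 1 carried most of its reads. Ccl27a, a skin chemokine, rose by 2.0 ± 0.47 with the extracranial tumor under therapy (0.00724). Ccl5, a ligand of Ccr1 made by T cells, rose by 4.12 ± 1.09 there (0.0125) and had 3.17 ± 1.04 under therapy with both tumors (0.0752).

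Of 17 other chemokine receptors, 13 were tested. The shares of all genes called higher were 1.24% under therapy with both tumors and 24.4% with the extracranial tumor under therapy. Ccr4, a chemokine receptor of T cells, was the 1 that passed under therapy with both tumors, by 2.47 ± 0.59 (edgeR adjusted p = 0.0498), at 0.827 to 1.29 CPM against 0.0991 to 0.335 CPM under IgG. With the extracranial tumor under therapy 6 rose, among them Cx3cr1, the fractalkine receptor of microglia and patrolling monocytes (4.77 ± 1.02), and the decoy receptor gene Ackr1 (5.09 ± 1.11). Ccr8, the mouse receptor of Ccl8, also passed (0.00509), at 22, 32 and 46 reads with both tumors under therapy, against 0, 1 and 1 with the intracranial tumor only under therapy. Ccr8 had 7, 0 and 8 reads with both tumors under IgG. Cxcr4 passed for the interaction, by 2.78 ± 0.68 (0.0321), with Ackr1 and Cx3cr1. Ackr2, the decoy that removes inflammatory CC chemokines, had at most 25 reads in a library and a log2 fold change of 0.42 ± 0.77 under therapy with both tumors (0.712).

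Inducers and regulators of CC chemokines gave 1 of 21 tested genes higher under therapy with both tumors, against 1.24% of all genes. DESeq2 called 8 of the 21 there, and 20.4% of all genes in either direction. With the extracranial tumor under therapy 12 were higher and 1 lower, against 24.4% and 21.0% of all genes. Jun, a subunit of AP-1, was the 1 that passed with both tumors under therapy, with 83.0, 167 and 124 CPM under therapy, against 39.9, 34.0 and 39.6 CPM under IgG, a log2 fold change of 1.72 ± 0.29 (edgeR adjusted p = 0.0498). It also passed for the extracranial tumor under therapy (1.54 ± 0.29) and the interaction (2.11 ± 0.41, 0.0321), followed by Nfkbia, the NF-kB inhibitor, at 1.54 ± 0.34 and 1.44 ± 0.47. The NF-kB subunit gene Relb rose by 1.22 ± 0.23 with the extracranial tumor under therapy, and the cytokine genes Tnf and Il1b by 3.44 ± 1.18 and 3.32 ± 1.15. Tlr4, the endotoxin receptor, fell by 0.39 ± 0.12 there. Interferon gamma (Ifng) had 3.32 ± 1.71 and did not pass (0.133).

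Genes for monocyte growth and other attractants had 0 of 10 tested members called by edgeR under therapy with both tumors (6 at an unadjusted p under 0.05, and 4 with DESeq2), and 7 higher and 1 lower with the extracranial tumor under therapy. Il34 and Csf1r, a ligand and the receptor that keep macrophages and microglia alive, rose by 4.33 ± 0.73 and 3.39 ± 0.73, and fractalkine (Cx3cl1), made by neurons, by 4.54 ± 0.91. Csf2ra, a subunit of the GM-CSF receptor, passed for the interaction with 1.95 ± 0.57 (0.0382). Mif, an attractant that many tumors secrete, fell by 0.48 ± 0.15 with the extracranial tumor under therapy. Of 12 signalling genes downstream of CC receptors, edgeR called 0 under therapy with both tumors (9 at an unadjusted p under 0.05, and 6 with DESeq2), and 10 rose and 1 fell with the extracranial tumor under therapy. Elmo1, which links receptors to Rac, rose by 3.36 ± 0.60, the kinase subunit gene Pik3r5 by 3.04 ± 0.56, and Plcb2, a phospholipase C gene, by 1.95 ± 0.39. Prkcb, a protein kinase C gene also used by neurons, passed for the interaction with 5.21 ± 1.51 (0.0381), and the G protein gene Gnai3 fell by 0.43 ± 0.10 with the extracranial tumor under therapy. These lists stand beside the 45.4% of all genes that passed with the extracranial tumor under therapy, and the neuron and microglia markers moved with them. Under therapy with both tumors, edgeR called 5.39% of all genes, 33.4% had an unadjusted edgeR p under 0.05, and DESeq2 called 20.4%.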

How the data were processed

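The deposited table of raw read counts per gene and the deposited FPKM table of the authors were used. Per the submitters' processing notes, TopHat2 2.0.12, Bowtie2 2.2.3 and HTSeq 0.6.1 served for mapping and counting, on GRCm38 or mm10. The annotation release and the strand setting are not given in the sources used here. For Ccr2 the length behind the deposited FPKM was 3535 bases, against 6760 exon bases in the GENCODE M21 annotation used here, and 46488 identifiers matched a symbol.

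Counts were tested with edgeR 4.0.16 (R 4.3.3): TMM factors, filterByExpr (minimum count 10, total 15), a quasi-likelihood fit of 4 group means on 12 libraries and Benjamini-Hochberg adjustment over 15925 genes, threshold 0.05. SE is the absolute log2 fold change over the square root of F. The fit was tested on simulated counts with the same dispersion (0.112) for all genes. That test does not speak for genes that vary as widely between libraries as the members. Alternatives were DESeq2 1.42.0, its size factors, no filter, limma 3.58.1 on log2(FPKM + 1) and log2(FPKM + 0.1), the compared groups alone and each library left out. Replicates were numbered in accession order, since the labels give no replicate or batch, so no pairing was used. The p-values measure the spread between the mice sampled.

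Named were all members, the 3 genes of nearest pattern to each (mean of at least 1 CPM), up to 3 genes of smallest p per pathway list and comparison, Ackr2 and Ccl11. A gene and a sequence that these rules would include are not reported here. Ccl5, Tnf, Il1b, Ifng, Tlr4, Mif and Gnai3 were named after their values were seen. The members and lists were chosen with earlier results of these data known.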

Additional observations from a re-analysis of the deposited data

How the results depend on the processing

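Of 751 log2 fold changes of members under an alternative, 670 kept their direction and side of the threshold, 59 turned round, 9 passed newly and 13 no longer passed, and 64 member levels moved by less than 1 SD under another scaling. Members called under therapy against IgG with both tumors numbered 2 with DESeq2 and 1 with log2(FPKM + 1), against 0. With the extracranial tumor under therapy 1 was called with no filter and 1 with log2(FPKM + 0.1), and 0 to 3 with a library left out, against 2. DESeq2 gave no adjusted p for Ccl8 there. For the interaction 1 was called with DESeq2 and 0 to 1 with a library left out, against 0.

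Both comparisons that rest on the intracranial-only IgG group turned round. With log2(FPKM + 1), therapy against IgG with the intracranial tumor only gave 0.01 (Ccr2) and 0.31 (Ccl8), and both tumors against the intracranial tumor only under IgG gave 0.18 (Ccl7), 0.29 (Ccr2), 0.05 (Ccl3) and 0.97 (Ccl8). With log2(FPKM + 0.1) the first gave 0.51 (Ccr2), 0.24 (Ccr1), 0.06 (Ccl3) and 1.32 (Ccl8), and the second 0.36 (Ccl7), 1.02 (Ccr2), 0.25 (Ccl3), 0.01 (Ccl4) and 2.40 (Ccl8). Without both IgG libraries that stand apart, chosen after seeing the data, the first gave 0.97 (Ccl2), 1.59 (Ccl7), 5.44 (Ccl8), 0.45 (Ccl12), 1.46 (Ccl3), 1.07 (Ccl4), 3.08 (Ccr2) and 2.22 (Ccr1). The second gave 1.18 (Ccl2), 1.98 (Ccl7), 6.18 (Ccl8), 1.12 (Ccl12), 2.12 (Ccl3), 1.89 (Ccl4), 3.85 (Ccr2) and 2.07 (Ccr1). The interaction gave -0.46 (Ccl7), -2.48 (Ccl8), -2.24 (Ccr2) and -0.54 (Ccr1).

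With 1 library left out, the first comparison ran from -1.64 to 0.97 (Ccl2), -1.89 to 1.59 (Ccl7), -2.64 to 5.43 (Ccl8), -1.88 to 0.45 (Ccl12), -1.48 to 1.46 (Ccl3), -2.42 to 1.06 (Ccl4), -1.75 to 3.08 (Ccr2) and -1.20 to 2.22 (Ccr1). The second ran from -1.77 to 0.97 (Ccl2), -1.32 to 1.90 (Ccl7), -0.87 to 5.70 (Ccl8), -1.19 to 0.76 (Ccl12), -0.82 to 1.66 (Ccl3), -1.17 to 1.43 (Ccl4), -1.30 to 3.44 (Ccr2) and -1.85 to 1.75 (Ccr1). The interaction ran from -0.37 to 3.09 (Ccl7), -1.99 to 6.07 (Ccl8), -1.82 to 2.99 (Ccr2) and -0.21 to 3.39 (Ccr1). The cause was not tested.

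Over all genes, therapy against IgG with both tumors called 858 genes, with adjusted p-values that begin at 0.0498. It called 0 with DESeq2 size factors, with no filter and with the groups alone, 3133 with DESeq2, 2421 with log2(FPKM + 1), 2 with log2(FPKM + 0.1), 0 to 2394 with a library left out and 0 without both IgG libraries. With the intracranial tumor only, 0 genes became 1035 with DESeq2, 839 with the groups alone, 0 to 1002 with a library left out and 1067 without both IgG libraries. The interaction called 3505 genes, 0 to 4367 with a library left out and 1674 without both IgG libraries. The extracranial tumor under therapy called 7231, and 4710 without replicate 2 of the group with both tumors under therapy. The 2-group fit gave no Ccl4 value with the intracranial tumor only, and cannot be had for the interaction. No paired analysis was possible because the labels carry no replicate numbers. Few reads limit Ccl3, Ccl4 and Ccl8 outside the group with both tumors under therapy.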
